A study of Mus musculus with 13 samples.

Results

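Axon guidance ligands and receptors were followed in single mouse proprioceptors, the dorsal root ganglion (DRG) neurons that innervate muscle spindles and Golgi tendon organs, at e14.5, p0, p12 and in the adult. The e14.5 set may also hold other sensory neurons, as described below. All genes whose symbols belong to the semaphorins of classes 3 to 7, the plexins, neuropilins, Eph receptors, ephrins, Slits, Robos, netrins, Unc5 receptors or Dcc were taken, which gave 71 of the 50508 rows of the count tables. They comprise 20 semaphorins, 9 plexins, 2 neuropilins, 9 EphA and 5 EphB receptors, 5 A-type and 3 B-type ephrins, 3 Slits, 4 Robos, 3 netrins, 4 Unc5 receptors, Dcc, and 3 antisense genes of Plxna4. Of these, 62 had at least 1 unique molecular identifier (UMI, a tag that counts 1 captured transcript) in the neurons kept for analysis, 17 had fewer than 10 UMIs or none, and the median was 70 UMIs. Ephb4, Robo4, Ntn5, Plxna4os1 and Plxna4os3 had no UMI in the kept neurons.

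The 4 Unc5 receptors cannot be read from these tables. Unc5a, Unc5b, Unc5c and Unc5d lie in a run of 342 alphabetically neighbouring rows, from U2af1 to V1rg10, that held 0 in all 1248 wells, and that run includes Ubb and Uchl1, which neurons use throughout life. Their zeros, including that of Unc5c, a repulsive netrin receptor, are therefore not measurements, and 67 members remained.

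Neurons were labelled with tdTomato, sorted 1 to a well into plates of 96 wells, and sequenced by Plate-seq. Adult (p56 or older, 5 plates), p12 (4 plates) and p0 (2 plates) neurons came from PV:Cre+/-;Rx3:Flp+/-;Ai65+/- mice, in which the reporter needs both the Parvalbumin-driven Cre and the Runx3-driven Flp, whereas e14.5 neurons (2 plates) came from TrkC:tdTomato embryos. Stage and labelling allele therefore changed together between e14.5 and p0, and their parts in any difference between those stages cannot be told apart. The TrkC allele also labels neurons that express Runx3 without Parvalbumin, presumed afferents of Merkel cells in skin. The authors propose that e14.5 clusters 3 and 4, with 34 and 6 of the kept neurons, are not proprioceptors. The stage comparisons include them except where e14.5 clusters 1 and 2 alone are named. Tissue came from 6 adult, 4 p12 and 6 p0 animals and 2 embryos of either sex, pooled over plates in a way the labels do not give, so p-values over plates measure the spread between plates, which may be technical.

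The kept neurons numbered 169 at e14.5, 55 at p0, 154 at p12 and 208 in the adult, with medians of 10604, 41058, 24463 and 36927 UMIs per neuron and 680212 to 2387288 UMIs per plate. All 5 proprioceptor markers were present at each stage, with summed levels per plate of 1668 to 1708 CPM (UMIs of a gene scaled to a fixed total per neuron) at e14.5, 4986 to 5060 at p0, 4076 to 4371 at p12 and 2761 to 3315 in the adult. Glial transcripts changed with stage. The summed CPM of satellite glia and Schwann cell markers was 11.3 and 22.6 on the e14.5 plates, where Cdh19, Kcnj10, Prx and Sox10 were at 0, against 517 and 636 at p0, 215 to 604 at p12 and 309 to 853 in the adult. At p0 most of it sat in the 8 neurons of 1 cluster (3256 and 3299 CPM on the 2 plates, against 102 to 113 in the other neurons). Levels below are plate averages of the CPM of the kept neurons, summarised as mean ± SD with plates as n, and differences are log2 values from an edgeR quasi-likelihood fit of UMI sums per plate over all genes, with adjusted p-values by the Benjamini-Hochberg method and a threshold of 0.05. CPM are relative to all UMIs of a neuron, so a gene can change in CPM with no change in its number of transcripts.

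Guidance molecules steer growth cones, and many are kept or reused in mature neurons at synapses and nerve endings. Semaphorins signal through plexins, and most secreted class 3 semaphorins first need a neuropilin as the binding partner. Ephrins are tethered to the membrane and signal both through Eph receptors on the neighbouring cell and backwards into their own cell, Slits are secreted ligands of Robo receptors, and netrins attract through Dcc and repel through Unc5. In spinal sensory neurons these systems are known for keeping axons out of inappropriate territory, for branching at the dorsal root entry zone and for matching proprioceptive collaterals with motor neurons.

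The 3 ephrins that fell between e14.5 and p0 in the comparisons below, Efna5, Efnb2 and Efnb1, started from promoters of different make-up. Each of these calls was lost under some alternatives, as given with the genes below, and a shared course was not tested. The 250 bases before each RefSeq start (build GRCm38.p6, equal to mm10) are shown, with every GC box (GGGCGG on either strand, CCGCCC as read here on the other) in capitals. Efna5 was read on the minus strand of chr17:62881318-62881567, Efnb2 on the minus strand of chr8:8661243-8661492 and Efnb1 on the plus strand of chrX:99135811-99136060, in each case upstream of the annotated gene.
Efna5: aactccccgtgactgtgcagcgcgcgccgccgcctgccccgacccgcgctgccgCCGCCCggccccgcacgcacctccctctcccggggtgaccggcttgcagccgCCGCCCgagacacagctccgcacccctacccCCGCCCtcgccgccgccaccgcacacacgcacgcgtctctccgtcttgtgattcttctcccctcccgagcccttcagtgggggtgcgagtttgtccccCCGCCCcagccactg
Efnb2: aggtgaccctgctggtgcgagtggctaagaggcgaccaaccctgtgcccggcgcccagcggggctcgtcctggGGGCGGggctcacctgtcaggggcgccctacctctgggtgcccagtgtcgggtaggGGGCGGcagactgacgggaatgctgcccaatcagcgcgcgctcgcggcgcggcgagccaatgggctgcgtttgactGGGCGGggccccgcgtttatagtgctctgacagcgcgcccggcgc
Efnb1: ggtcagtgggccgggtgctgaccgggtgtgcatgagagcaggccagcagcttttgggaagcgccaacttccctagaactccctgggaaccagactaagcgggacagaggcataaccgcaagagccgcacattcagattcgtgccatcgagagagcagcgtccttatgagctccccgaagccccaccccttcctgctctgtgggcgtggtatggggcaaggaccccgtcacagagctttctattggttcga
The Efna5 window held 4 GC boxes and 32 CpG dinucleotides, that of Efnb2 held 3 and 27, and that of Efnb1 held 0 and 13, against a median of 6 CpG over all 32851 promoter windows. Of 74 windows belonging to 58 members, 52 (70.3%) held a GC box, compared with 32.7% of all windows. A Runx motif (TGTGGT, either strand) was in 12.2% of the members' windows and 14.05% of all, an ETS motif (GGAAGT) in 17.6% and 19.7%, and an E-box (CAGCTG) in 16.2% and 13.001%. Matches of different motifs were counted separately and may overlap. They are counts of letters in a window and say nothing about binding.

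The summed level of all members was 1198 ± 24.8 CPM at e14.5 (n = 2), 1040.3 ± 68.1 at p0 (n = 2), 821 ± 119.6 at p12 (n = 4) and 725 ± 187 in the adult (n = 5), with no test made of the sum. The p0 plates (992 and 1088) lay below both e14.5 plates (1181 and 1216), but with the e14.5 neurons of clusters 1 and 2 alone, those higher in proprioceptor markers, the sums were 1062 and 1170 and overlapped with p0, and the p12 range (690.3 to 957) and the adult range (571 to 939) overlapped. Family sums, none of which was tested, took different courses. They hold all kept e14.5 neurons and were not taken for clusters 1 and 2 alone. Most of the e14.5 ephrin-A and neuropilin sums was Efna5 and Nrp1, which were both higher in clusters 3 and 4, as given with the clusters. Ephrin-A sums were 179.6 ± 28.2 CPM at e14.5 and 59.7 ± 6.54 at p0, ephrin-B sums 141 ± 13.8 and 39.5 ± 10.5, and EphA receptor sums 165 ± 31.3 and 97.3 ± 1.01. EphB receptors gave 26.7 ± 3.89 and 13.1 ± 1.51 CPM at these 2 stages, then 20.1 ± 5.51 at p12 and 18.04 ± 6.53 in the adult. The neuropilin sum, nearly all Nrp1 at e14.5, was 68.4 ± 0.150 at e14.5 and 3.18 ± 2.58 CPM at p0 and stood at 6.35 ± 5.24 and 3.87 ± 3.26 later. Plexins stood at 313 ± 10.8 and 377 ± 65.9 CPM at e14.5 and p0, and at 196 ± 50.7 and 139.8 ± 21.5 at p12 and in the adult. The Slit sum was higher after e14.5 mostly through Slit2, with 41.3 ± 3.72 CPM at e14.5, 103 ± 1.65 at p0, 92.0 ± 13.5 at p12 and 91.8 ± 23.9 in the adult, and Robos gave 28.6 ± 0.514, 39.8 ± 0.647, 60.8 ± 20.1 and 46.9 ± 11.4. Slit3 stood at 1.60 CPM at p12 and 2.61 in the adult. Semaphorin sums changed least in proportion among these families, at 229.7 ± 5.39, 303 ± 1.32, 266 ± 47.2 and 247 ± 50.7 CPM.

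**Figure D1:**
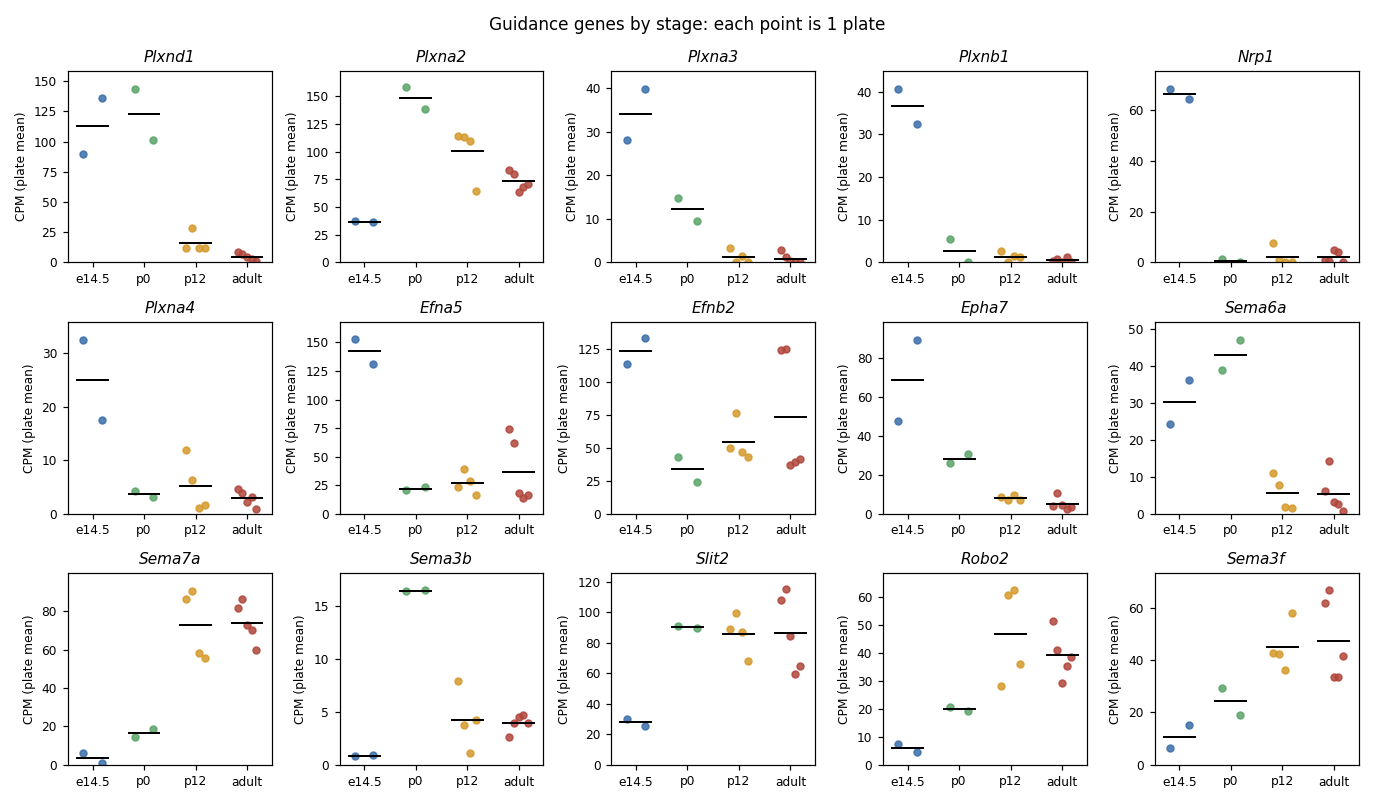
Levels of 15 guidance genes in CPM (y axis, linear, each panel with its own scale from 0) at e14.5, p0, p12 and in the adult (x axis), where each point is 1 plate and the bar is the mean over plates. Nrp1 stood at 68.3 and 64.4 CPM on the e14.5 plates and at most at 7.64 on any later plate, Plxnd1 fell after p0, and Sema7a stood at 55.8 CPM or more on every p12 and adult plate.

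Only 38 of the 71 members passed the filter on low counts for the stage fit. Members that pass because 1 stage is high are bound to differ between stages, so the counts that follow describe the tested members and not the families as a whole. From e14.5 to p0, 15 of the 38 passed the threshold, 6 higher and 9 lower at p0, while 27.8% of all tested genes did (14.7% higher and 13.1% lower). From p0 to p12, 11 of 38 passed, 2 higher and 9 lower, beside 18.1% of all genes (9.1% higher, 9.01% lower). From p12 to adult only Epha4 and Plxnd1 passed, both lower in the adult, beside 14.1% of all genes (7.57% higher, 6.56% lower), and 8 members had an unadjusted p under 0.05. The median log2 difference of the members against that of all tested genes was -0.08 against 0.01, -0.35 against 0.02 and -0.41 against 0.04 in these 3 comparisons. Across all stages together 29 of 38 differed, beside 64.6% of all genes.

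**Figure D2:**
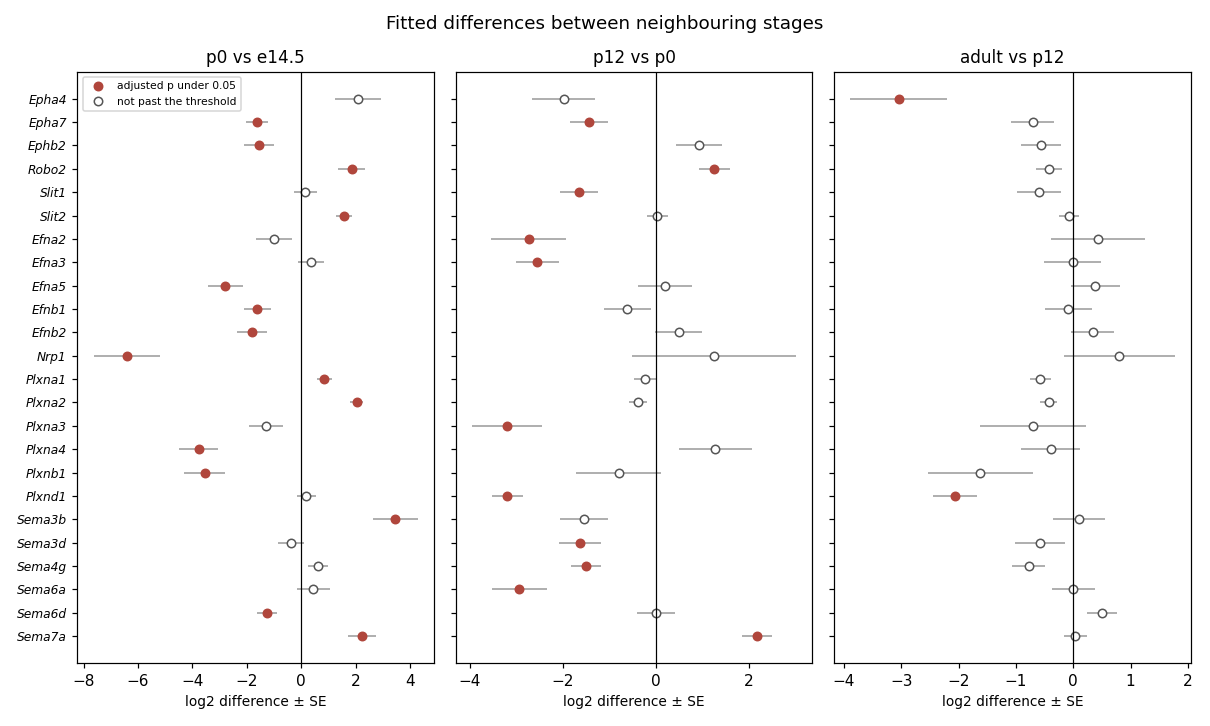
Fitted log2 differences ± SE (x axis) of 24 guidance genes (y axis) for p0 against e14.5, p12 against p0 and adult against p12, with filled points for an adjusted p under 0.05. Most filled points to the left of 0 belong to ephrins, plexins and Nrp1 in the first panel, where Nrp1 lies at -6.42, and to class 3, 4 and 6 semaphorins, Plxna3, Plxnd1 and ephrins in the second.

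Neuropilin transcripts were mostly those of Nrp1 at e14.5. Nrp1 (chr8:128358591-128505476, build mm10 here and for the genes that follow), the binding subunit for Sema3a, had 68.3 and 64.4 CPM on the e14.5 plates, 1.36 and 0 at p0, 7.64, 0.965, 0.380 and 0 at p12, and 0.871, 0.515, 5.06, 3.99 and 0 in the adult. Both e14.5 plates lay above every later plate. The difference from e14.5 to p0 was -6.42 ± 1.21 (log2 ± SE, adjusted p = 0.00174), which rested on 150 UMIs at e14.5 and 2 at p0 (ratio of shares 90.9, 95% exact interval 24.7 to 757 for counting error). Most e14.5 Nrp1 lay in clusters 3 and 4, which were low in proprioceptor markers, and with clusters 1 and 2 alone the difference was -4.20 and did not pass (adjusted p = 0.0538). Nrp2, the partner of Sema3f, was near its floor at all stages, with 0 and 4.11 CPM at e14.5, 0 and 5.01 at p0, 1.15 to 6.17 at p12 and 0 to 3.94 in the adult, and was not tested. No e14.5 neuron held a UMI of both neuropilins.

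Among the plexins, the signalling receptors of semaphorins, Plxnb1 and Plxna4 fell by p0 and Plxna3 by p12. Plxnb1, a receptor for Sema4d, had 40.7 and 32.5 CPM at e14.5 and 5.51 and 0 at p0, with 0 to 2.72 at p12 and 0 to 1.33 in the adult. Its difference to p0 was -3.55 ± 0.74 (adjusted p = 0.00311), and the e14.5 plates did not overlap with any other. Plxna4, which pairs with Nrp1 for Sema3a and also binds class 6 semaphorins, had 32.6 and 17.6 CPM at e14.5 and 4.24 and 3.11 at p0 (-3.76 ± 0.72, adjusted p = 0.00193, or -1.87, adjusted p = 0.135, with e14.5 clusters 1 and 2 only), and 1.04 to 11.9 and 0.885 to 4.65 CPM at p12 and in the adult. Plxna3, a partner of Nrp2, declined in 2 steps, with 28.1 and 40.0 CPM at e14.5, 14.8 and 9.58 at p0, and 3.31, 0, 1.48 and 0 at p12. Only the second step passed (-3.20 ± 0.75, adjusted p = 0.00877), the first giving -1.30 ± 0.62 (adjusted p = 0.130). Adult plates had 0 to 2.76 CPM of Plxna3.

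Plxnd1 (chr6:115954811-115995339), the receptor of Sema3e known for its role in sensory-motor connectivity, kept its level through birth and then fell at both later steps. It had 89.9 and 136 CPM at e14.5, 144 and 101 at p0, 12.0, 28.7, 12.3 and 12.0 at p12, and 8.49, 6.67, 4.17, 2.603 and 0.809 in the adult. No plates overlapped between p0 and p12 or between p12 and adult. The differences were 0.19 ± 0.36 from e14.5 to p0 (adjusted p = 0.723, and -0.18 with e14.5 clusters 1 and 2 only), -3.19 ± 0.34 from p0 to p12 (adjusted p = 2.36e-05) and -2.06 ± 0.39 from p12 to adult (adjusted p = 0.00354). Its ligand Sema3e was nearly absent, with 2 UMIs at e14.5, 0 at p0, 6 at p12 and 30 in the adult, where plates had 0.938 to 4.08 CPM. In the adult Plxnd1 was higher in the glia-rich wells that were left out than in the kept neurons of the same plate on 5 of 5 plates (14.2 against 4.55 CPM on average).

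Plxna2 (chr1:194619791-194816869), a receptor of class 6 semaphorins, and Plxna1, a common subunit of class 3 semaphorin receptors, were the plexins that rose. Plxna2 had 37.4 and 36.4 CPM at e14.5 and 159 and 139 at p0, with no overlap (2.04 ± 0.24, adjusted p = 5.73e-05). It then stood at 114, 113, 109 and 64.2 CPM at p12 and 63.5 to 83.8 in the adult, and neither later step passed (-0.38 ± 0.19, adjusted p = 0.183, and -0.43 ± 0.15, adjusted p = 0.066). Plxna1 had 46.3 and 31.3 CPM at e14.5 and 75.6 and 54.6 at p0 (0.85 ± 0.28, adjusted p = 0.0365), then 37.8 to 80.8 and 33.0 to 50.4. The Plxna2 rise passed in 10 of 10 alternatives, that of Plxna1 in only 2 of 10 (adjusted p up to 0.517). Plxnc1, a receptor of Sema7a, changed by less than 1 log2 unit at each step and had 20.1 and 18.6 CPM at e14.5, 17.3 and 19.1 at p0, 7.88 to 12.4 at p12 and 10.9 to 26.3 in the adult. Only the test across all stages passed (adjusted p = 0.0375), and it held in 5 of 17 alternatives. Plxnb2, a receptor of class 4 semaphorins, likewise passed only across all stages (adjusted p = 0.0364, held in 9 of 17), with 10.2 and 7.99 CPM at e14.5, 3.55 and 3.83 at p0, 0 to 4.37 at p12 and 1.53 to 5.70 in the adult.

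Several semaphorins fell after birth and 1, Sema7a, rose at both of the first steps. This gene (chr9:57939596-57962865), a membrane-anchored semaphorin that also binds integrins, had 5.97 and 1.20 CPM at e14.5, 14.3 and 18.8 at p0, 86.1, 90.6, 58.2 and 55.8 at p12, and 81.5, 86.5, 72.5, 70.1 and 59.6 in the adult. Plates of e14.5, p0 and p12 were fully separate, and p12 and adult overlapped. The rises were 2.23 ± 0.51 to p0 (adjusted p = 0.00559) and 2.18 ± 0.32 to p12 (adjusted p = 0.000341), with 0.04 ± 0.21 to adult (adjusted p = 0.930). A UMI of Sema7a was found in 4.53% of e14.5 neurons and 89.2% of adult neurons, or in 4.15% and 38.7% when neurons were thinned to 7000 UMIs, a depth reached by 151 of 169 neurons at e14.5, 152 of 154 at p12 and all at p0 and in the adult. Under that thinning neither rise of Sema7a passed (adjusted p = 0.130 to p0 and 0.0904 to p12).

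Sema6a, a transmembrane ligand of Plxna2 and Plxna4, had 24.2 and 36.2 CPM at e14.5, 38.8 and 47.0 at p0, and 11.1, 7.61, 1.72 and 1.66 at p12, with p0 above every p12 plate (-2.94 ± 0.59, adjusted p = 0.00314). Adult plates had 0.809 to 14.3 CPM. Sema4g fell at the same step, from 34.0 and 39.9 CPM to 14.7, 9.96, 16.1 and 10.9 (-1.51 ± 0.32, adjusted p = 0.00490). Sema3d, a secreted class 3 ligand, went from 25.4 and 11.4 CPM at p0 to 1.04, 10.6, 10.5 and 7.42 at p12 (-1.64 ± 0.45, adjusted p = 0.0214), so its plates did not overlap although the lower p0 plate was close to the higher p12 plates. Sema6d, a Plxna1 ligand, fell earlier, with 25.2 and 21.4 CPM at e14.5 and 9.39 and 14.6 at p0 (-1.26 ± 0.38, adjusted p = 0.0245), and 7.83 to 17.3 and 11.2 to 15.8 CPM later. For Sema6c, another Plxna1 ligand, plates held 2.37 to 3.74, 5.84 to 6.91, 1.35 to 4.96 and 0.494 to 5.28 CPM from e14.5 to adult, too few counts to be tested.

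Sema3b, a secreted class 3 semaphorin, was high at p0 alone, with 0.849 and 0.890 CPM at e14.5, 16.4 and 16.5 at p0, 7.92, 3.73, 1.10 and 4.22 at p12 and 2.61 to 4.74 in the adult. The p0 plates stood above all others, and the rise to p0 was 3.46 ± 0.83 (adjusted p = 0.00697) on 2 and 31 UMIs (ratio of shares 12.8, 95% exact interval 3.26 to 110.3 for counting error). Without either e14.5 replicate the call was lost (adjusted p up to 0.0554), and after thinning or without p0 replicate 1 the gene did not pass the filter. Glial transcripts moved with it. By p0 cluster Sema3b had 9.71, 7.17 and 53.1 CPM in clusters 1, 2 and the glia-rich cluster 3, and in the left-out wells of the adult plates it was 16.3 times as high as in kept neurons (5 of 5 plates). With the p0 neurons of clusters 1 and 2 alone, a setting chosen after seeing the data, Sema3b no longer passed the filter on low counts. Sema3a, the classic repellent of sensory axons, had 7.61 and 1.22 CPM at e14.5, 4.06 and 0.576 at p0, and a single UMI each at p12 and in the adult. Sema5a, which can attract or repel, had 10.8 and 10.3 CPM at e14.5, 24.5 and 35.3 at p0, 9.01 to 26.0 at p12 and 4.78 to 10.97 in the adult, and only the test across all stages passed (adjusted p = 0.0446), as it did in 7 of 17 alternatives. Sema3f, a ligand of Nrp2, had 6.30 and 15.1, 29.2 and 19.2, 36.2 to 57.7 and 33.3 to 66.6 CPM, and likewise passed only across all stages (adjusted p = 0.00205). Sema4f, a transmembrane class 4 semaphorin, had 41.0 and 41.9 CPM at e14.5, 67.6 and 67.9 at p0, 46.2 to 69.1 at p12 and 28.6 to 51.7 in the adult (adjusted p = 0.0115 across stages, held in 15 of 18 alternatives).

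Ephrins, whose promoters are shown above, were the ligand families with lower sums at p0 than at e14.5. Efna5, an A-type ephrin attached to the membrane by a lipid anchor, had 153 and 131 CPM at e14.5, 20.6 and 23.2 at p0, 23.2, 39.3, 28.9 and 16.3 at p12, and 74.3, 61.8, 18.4, 13.5 and 16.5 in the adult. The e14.5 plates exceeded all others (p0 against e14.5: -2.79 ± 0.63, adjusted p = 0.00526), but with e14.5 clusters 1 and 2 only the difference was -1.63 and did not pass (adjusted p = 0.0771). Efnb2, a transmembrane B-type ephrin, had 113 and 133 CPM at e14.5, 42.8 and 24.4 at p0, 50.0, 76.8, 47.0 and 43.2 at p12, and 124, 125, 37.2, 39.2 and 41.6 in the adult (-1.81 ± 0.56, adjusted p = 0.0268). That fall lost its call without any 1 of the 4 plates compared (adjusted p up to 0.179). For both genes, adult replicates 1 and 2 stood apart from replicates 3 to 5, as described with the adult clusters. Efnb1 had 17.8 and 16.2 CPM at e14.5 and 4.17 and 7.70 at p0 (-1.61 ± 0.49, adjusted p = 0.0245), then 3.40 to 3.94 and 1.51 to 4.53. In contrast Efna3 fell only from p0 to p12, with 30.5 and 18.9, 29.5 and 26.5, and 4.38, 11.1, 4.00 and 2.496 CPM (p12 against p0: -2.55 ± 0.47, adjusted p = 0.00162), and 2.72 to 6.48 CPM in the adult. Efna2 went from 4.47 and 9.63 CPM at p0 to 0, 0.965, 0.843 and 0.433 at p12 (-2.73 ± 0.81, adjusted p = 0.0298), a call that held in 6 of 11 alternatives and was lost without either p0 plate or p12 replicate 3 or 4 (adjusted p up to 0.208).

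Of the Eph receptors, the tyrosine kinases that bind ephrins, Epha7 fell at each of the first 2 steps. It had 47.6 and 89.7 CPM at e14.5, 26.0 and 30.8 at p0, 8.70, 6.82, 9.44 and 6.91 at p12, and 4.05, 10.7, 4.51, 2.55 and 3.20 in the adult. Plates of the first 3 stages did not overlap (-1.63 ± 0.40, adjusted p = 0.00850, then -1.44 ± 0.40, adjusted p = 0.0230). The calls held in 7 of 10 and 9 of 13 alternatives, and both were lost without either p0 plate (adjusted p up to 0.125 and 0.432). Epha4, which binds ephrins of both types, had 3.00 and 6.08, 11.3 and 25.3, 1.09, 10.2, 4.27 and 0.701, and 0.316, 1.16, 0, 0 and 0.809 CPM from e14.5 to adult. Its p0 plates were the highest, but neither the step to p0 (2.08, adjusted p = 0.0785) nor that to p12 (-1.98, adjusted p = 0.0526) passed. Its fall from p12 to adult passed (-3.05 ± 0.84, adjusted p = 0.0269) although the lowest p12 plates reached the highest adult plate. Ephb2 went from 20.6 and 8.17 CPM to 5.45 and 3.08 at p0 (-1.55 ± 0.54, adjusted p = 0.0429) and had 5.05 to 15.2 CPM at p12. This call held in 3 of 9 alternatives (adjusted p up to 0.363). Ephb1 had 6.68 and 5.69, 0 and 4.36, 3.79 to 9.82 and 3.32 to 11.9 CPM over the 4 stages, with no step past the threshold (adjusted p = 0.187, 0.151 and 0.371). Epha5 had 37.7 and 39.6 CPM at e14.5, 28.3 and 10.3 at p0, and 8.91, 9.20, 46.3 and 63.9 at p12, where plates 3 and 4 exceeded plates 1 and 2.

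Slit2 and its receptor Robo2 rose from e14.5 to p0, the step at which Efna5, Efnb1 and Efnb2 fell. Slit2 (chr5:47981291-48307735), a secreted glycoprotein, had 30.1 and 25.7 CPM at e14.5, 90.7 and 89.5 at p0, 88.7, 99.6, 86.9 and 67.8 at p12, and 108, 115, 84.5, 59.5 and 64.8 in the adult. All e14.5 values lay below all later ones (1.58 ± 0.30, adjusted p = 0.00163), and the later stages overlapped. Robo2 (chr16:73891976-75447443) had 7.47 and 4.46 CPM at e14.5, 20.8 and 19.2 at p0, 28.3, 60.6, 62.4 and 36.2 at p12, and 51.5, 41.2, 29.3, 35.4 and 38.4 in the adult, with e14.5 below p0 and p0 below p12 on every plate (1.85 ± 0.49, adjusted p = 0.0124, and 1.26 ± 0.33, adjusted p = 0.0158). The 2 Robo2 calls held in 6 of 10 and 9 of 13 alternatives (adjusted p up to 0.188 and 0.170), and neither held after thinning or without p0 replicate 1. Robo1 did not pass at any step (adjusted p = 0.931, 0.418 and 0.466), with 21.5 and 23.8 CPM at e14.5, 18.5 and 21.0 at p0, 23.2, 24.5, 4.89 and 2.49 at p12, and 3.84 to 12.8 in the adult. Slit1 fell from 13.8 and 12.7 CPM at p0 to 6.29, 4.48, 3.48 and 4.43 at p12 (-1.65 ± 0.40, adjusted p = 0.0111), having been at 13.9 and 13.0001 at e14.5, and stood at 1.65 to 4.26 CPM in the adult. UMIs of both Slit2 and Robo2 were found in the same neuron in 1.87% of neurons at e14.5, 54.7% at p0, 64.8% at p12 and 60.8% in the adult. After thinning to 7000 UMIs these shares were 1.41%, 8.53%, 13.2% and 7.47%, with e14.5 again lowest.

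Ntn1 and Dcc were close to the floor. Ntn1, the founding netrin, had no UMI at e14.5 or p0, 2 at p12 and 4 in the adult. Dcc, its attractive receptor, had 5.65 and 4.35 CPM at e14.5, 4.03 and 3.14 at p0, 0.845, 2.14, 2.10 and 0.390 at p12, and a single UMI on 1 of 5 adult plates. Its values at e14.5 and p0 exceeded those at p12 and later on every plate, from 9, 8, 7 and 1 UMIs, and it was too low to be tested.

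How far these calls held varied. From e14.5 to p0, Plxna2, Plxnb1 and Slit2 passed in each of the alternatives that gave them a value. With only e14.5 clusters 1 and 2, those with the higher proprioceptor marker level, 9 of the members passed. Nrp1, Efna5, Plxna4 and Sema6d (-0.78, adjusted p = 0.188) were then among those that no longer did. Efnb1 passed in 3 of 9 alternatives and Sema6d in 4 of 9. Leaving out p0 replicate 1 gave the lowest count, 6. From p0 to p12, Plxnd1, Efna3, Sema6a and Sema4g passed in each alternative with a value, and without p0 replicate 1 the count was 5. Slit1 (9 of 12), Plxna3 (10 of 12) and Sema3d (11 of 12, adjusted p up to 0.353) were among those lost without that plate. The adult fall of Plxnd1 lost its call only when neurons were thinned (adjusted p = 0.274), where 0 members passed. That of Epha4 passed in 11 of 17 alternatives (adjusted p up to 0.125).

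Clusters are those the depositing laboratory assigned to these same neurons from their whole transcriptomes. A test between clusters therefore shows only how far plates repeated a difference, since members of the families could themselves have shaped the clusters. UMIs were summed by cluster and plate where at least 2 neurons were present. As in the stage fit, members that pass the filter because a cluster is high are bound to differ between clusters. The cluster counts below describe the tested members and not the families.

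At e14.5, 3 guidance genes differed between clusters that also differed in their proprioceptor markers. Clusters 3 and 4 (34 and 6 neurons) had summed proprioceptor markers of 688 to 738 CPM, against 1727 to 2113 in clusters 1 and 2 (41 and 88 neurons). From low Etv1 and Parvalbumin and raised Maf, the authors propose that clusters 3 and 4 are not proprioceptors, with Merkel cell afferents among them. The comparison may therefore be between types of neuron. Nrp1 had 210.5 and 266 CPM in cluster 3 and 131 on the 1 plate of cluster 4, against 22.6 and 0 in cluster 1 and 14.3 and 29.2 in cluster 2. A UMI of Nrp1 was found in 100% of cluster 3 neurons and in 6.67% and 10.0% of those of clusters 1 and 2, and in 80.9%, 3.85% and 9.53% after thinning to 7000 UMIs. Efna5 showed the same division, with 425 and 349 CPM in cluster 3 and 336 in cluster 4, against 46.4 to 88.0 in clusters 1 and 2. Plxnd1 ran opposite to both, with 21.0 and 28.3 CPM in cluster 3 and 0 in cluster 4, against 93.8, 208, 118 and 146. The 0 came from 5 neurons on 1 plate, and the test gives cluster 4 the same weight as cluster 3. Over the alternatives the Plxnd1 difference was -5.48 to -2.69. None of these 3 genes overlapped between the pairs of clusters. They were the members that passed of 14 tested (Efna5 2.24 ± 0.31, adjusted p = 0.000478, Nrp1 3.52 ± 0.65, adjusted p = 0.00764, Plxnd1 -5.40 ± 0.96, adjusted p = 0.00578), beside 1.18% of all genes (0.59% in each direction), and the Plxnd1 call was lost with DESeq2 (adjusted p = 0.103). Plxna4 had 97.7 and 69.2 CPM in cluster 3, 47.3 in cluster 4 and 0 to 22.9 in clusters 1 and 2, and did not pass (2.80 ± 0.96, adjusted p = 0.245). Nrp1 and Plxna4, the 2 parts of a Sema3a receptor, were found together in 25 e14.5 neurons, 15.3% of those on a plate on average. Between clusters 1 and 2 none of 14 members passed, beside 2.65% of all genes (0.0407% higher and 2.61% lower in cluster 1). The 1 member with an unadjusted p under 0.05 was Epha5, at 92.3 and 70.2 CPM in cluster 1 and 30.4 and 35.2 in cluster 2 (adjusted p = 0.520), and DESeq2 also called none.

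**Figure D3:**
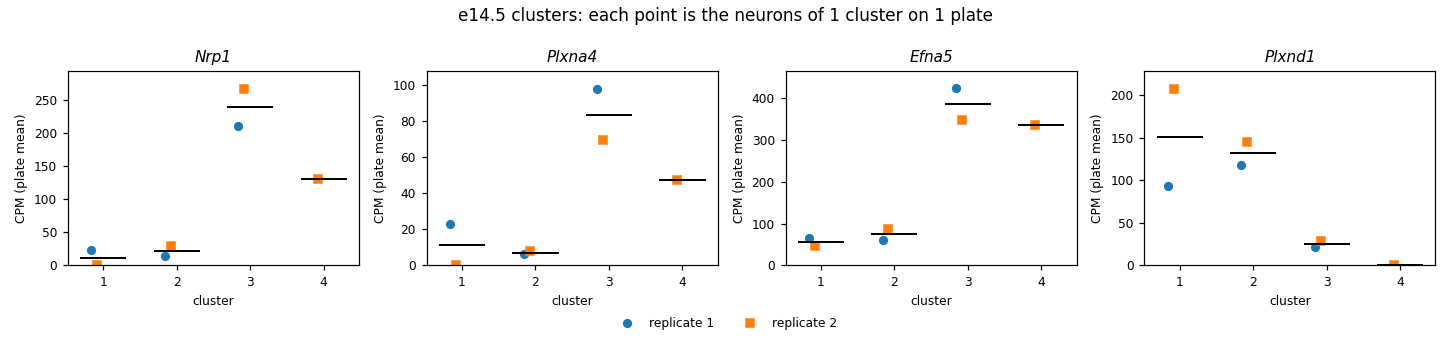
Levels of Nrp1, Plxna4, Efna5 and Plxnd1 in CPM (y axis, linear) in the 4 clusters of e14.5 neurons (x axis), where each point is the neurons of 1 cluster on 1 plate, the marker gives the replicate and the bar is the mean. Nrp1, Plxna4 and Efna5 are higher in clusters 3 and 4 than in clusters 1 and 2 on every plate shown, and Plxnd1 is lower.

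At p0, cluster 2 (12 neurons) is the one taken for tendon organ afferents, and clusters 1 and 3 hold 35 and 8 neurons. None of 9 members passed between cluster 2 and the others, beside 1.21% of all genes (0.692% higher, 0.514% lower), and 2 had an unadjusted p under 0.05. Efna3 had 43.7 and 61.5 CPM in cluster 2, 29.6 and 21.9 in cluster 1 and 4.21 and 0 in cluster 3 (adjusted p = 0.0905). Plxna2 had 129 and 75.5 CPM in cluster 2, 155 and 133 in cluster 1 and 229 and 237 in cluster 3 (adjusted p = 0.209). DESeq2 called none of the 9 either.

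At p12, clusters 2 and 3 (8 and 17 neurons) lie on plates 1 and 2 only and clusters 1, 4 and 5 (63, 58 and 8 neurons) on plates 3 and 4 only, so differences across these sets cannot be told apart from plates. Cluster 2 held 5 and 3 neurons on its 2 plates and cluster 5 held 6 and 2. The values of 0 for Robo2 and Sema4f in cluster 5 come from those 2 neurons on plate 4. Across the 5 clusters 6 of 11 tested members differed, beside 31.5% of all genes. Epha5 had 88.0 and 83.4 CPM in cluster 1, against 28.5 and 27.3 in cluster 4 and 9.24 and 12.1 in cluster 5 on the same plates, with no overlap, and 6.53 to 18.1 in clusters 2 and 3 (adjusted p = 6.88e-07). Robo2 was low in clusters 2 (12.6 and 9.05 CPM) and 5 (16.7 and 0) and was at 39.5 and 76.0 in cluster 3, 79.2 and 35.8 in cluster 1, and 60.0 and 40.8 in cluster 4 (adjusted p = 0.00376). Within each plate set, then, 1 cluster with little Robo2 stood beside at least 1 with more. Sema4f had a similar order, with 13.04 and 0 CPM in cluster 5 and 36.5 and 32.4 in cluster 2, against 85.006 and 80.2 in cluster 3, 60.6 and 58.0 in cluster 1, and 43.1 and 47.2 in cluster 4 (adjusted p = 0.00507). Sema7a was opposite, at 115 and 109 CPM in cluster 2 and 120.2 and 88.7 in cluster 5, and 41.6 to 84.96 in the other 3 (adjusted p = 0.00929). Sema3f was at 30.9 and 4.87 CPM in cluster 2 and 6.10 and 26.9 in cluster 5, below the 34.0 to 63.7 of the rest (adjusted p = 0.0114). Plxna2 was at 156 and 128 CPM in cluster 3 and 55.0 and 65.4 in cluster 2 on the same plates, and at 53.0 to 119.7 in clusters 1, 4 and 5 (adjusted p = 0.00676). Epha5 and Robo2 passed in each alternative with a value, Plxna2 in 9 of 10, Sema4f in 8 of 10, and Sema7a and Sema3f in 7 of 10 each. The last 2 were lost with DESeq2 and without p12 replicate 3 or 4 (adjusted p up to 0.215 and 0.135).

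**Figure D4:**
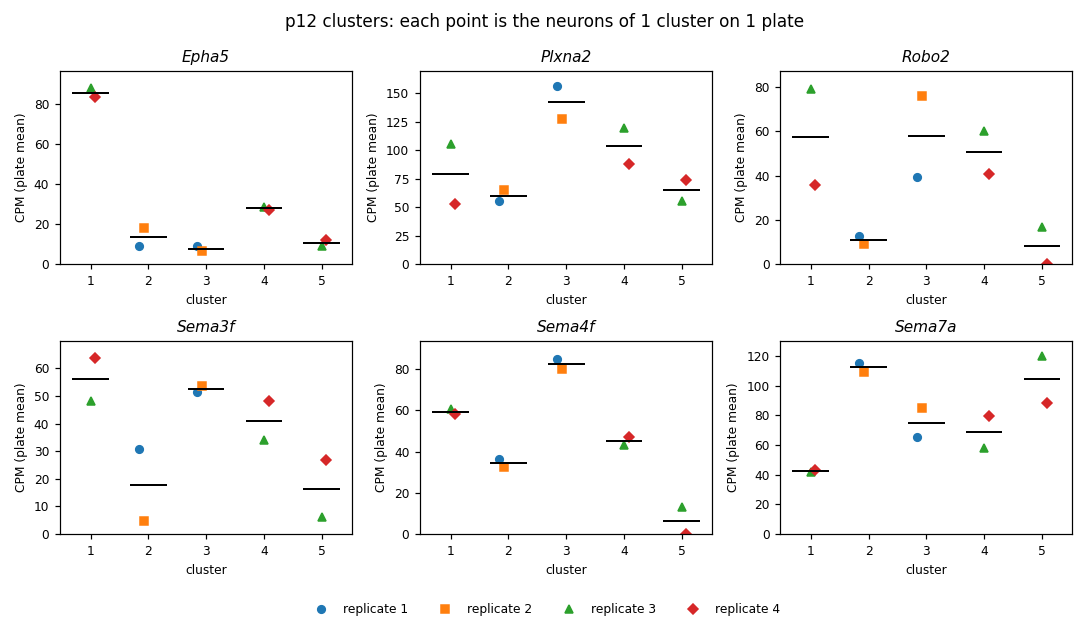
Levels of Epha5, Plxna2, Robo2, Sema3f, Sema4f and Sema7a in CPM (y axis, linear) in the 5 clusters of p12 neurons (x axis), where each point is the neurons of 1 cluster on 1 plate, the marker gives the replicate and the bar is the mean. Clusters 2 and 5 have the lowest Robo2 (0 to 16.7 CPM) and the highest mean Sema7a, and Epha5 is highest in cluster 1.

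In the adult, cluster 1 (51 neurons) and cluster 5 (31 neurons) had been assigned to spindle group Ia and tendon organ afferents by antibody and reporter labelling of endings in muscle. On plate 5 each of them held 3 neurons. Clusters 2 to 4 (15, 41 and 28 neurons) are only presumed, by inference, to be group II spindle afferents, and 42 further neurons were set apart. Robo2 separated cluster 1 from the other numbered clusters. It had 17.4, 8.91, 10.0, 5.55 and 0 CPM in cluster 1 on plates 1 to 5 and 41.7, 38.4, 52.0, 65.5 and 58.1 in cluster 5, with no overlap and cluster 5 higher on 5 of 5 plates. In clusters 2, 3 and 4 it was 32.1 to 119.9 CPM, also above all cluster 1 values. Of 12 members tested, 3 were higher in cluster 5 than in cluster 1, beside 4.76% of all genes (2.81% higher, 1.95% lower). These were Robo2 (2.46 ± 0.35, adjusted p = 8.67e-05), which passed in each alternative with a value, Sema3f (1.01 ± 0.29, adjusted p = 0.0460) and Plxna2 (0.87 ± 0.23, adjusted p = 0.0324). Plxna2 had 52.9, 57.1, 64.6, 40.5 and 12.5 CPM in cluster 1 and 117, 80.7, 89.0, 94.8 and 77.9 in cluster 5, again without overlap. Sema3f had 40.0, 38.7, 19.9, 21.4 and 13.2 CPM in cluster 1 and 33.7, 68.7, 28.4, 60.6 and 62.3 in cluster 5, higher on 4 of 5 plates and overlapping. The calls of Sema3f and Plxna2 each held in 5 of 13 alternatives, and leaving out replicate 2, 3 or 4 each left 1 of the 3 calls. Fibroblast markers moved with this comparison. The summed level of 6 such markers, of which Pdgfra was at 0 in adult neurons, was 47.8 to 107 CPM (median 63.1) in cluster 5 and 6.37 to 51.2 (median 14.9) in cluster 1, and their part in these differences was not tested. Slit2, the ligand, did not differ beyond the spread between plates (0.06 ± 0.25, adjusted p = 1.00), with 77.2 ± 13.5 CPM in cluster 1 and 80.9 ± 29.5 in cluster 5 (n = 5 each).

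The presumed group II clusters 2 to 4 as a set were higher than clusters 1 and 5 in 3 of 12 members, beside 5.63% of all genes (2.7% higher, 2.93% lower). Robo2 gave 1.45 ± 0.25 (adjusted p = 0.00115), Plxnc1 2.04 ± 0.44 (adjusted p = 0.00851) and Efnb2 1.10 ± 0.31 (adjusted p = 0.0368), and with plate as a block Sema3f also passed (adjusted p = 0.0380). For Robo2 the set stood above cluster 1 on every plate, whereas its 32.1 to 119.9 CPM overlapped with the 38.4 to 65.5 of cluster 5. For Efnb2 the 3 clusters were unlike. It had 167 and 155 CPM in cluster 2 and 159.7 and 202 in cluster 4, above the 52.3 to 112 of clusters 1 and 5 on the same 2 plates. In cluster 3 it had 10.4 CPM on replicate 2 (1 UMI in 2 neurons), below clusters 1 and 5 there, and 48.6, 47.2 and 70.6 on replicates 3 to 5, above the 13.2 to 34.96 of clusters 1 and 5 on those plates. Plxnc1 had 57.5 and 23.7 CPM in cluster 4, 21.3 and 14.8 in cluster 2, and 0, 18.9, 15.3 and 12.5 in cluster 3, against 0 to 11.9 in cluster 1 and 0 to 9.97 in cluster 5. Without replicate 2, on which clusters 2 to 4 all lie, 0 of 18 members passed, with differences of 1.27 for Robo2 (adjusted p = 0.0785), 2.38 for Plxnc1 (adjusted p = 0.0724) and 1.28 for Efnb2 (adjusted p = 0.127).

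Across all adult clusters 7 of 12 members differed, beside 9.67% of all genes: Robo2, Sema3f, Efnb2, Plxnc1, Efna5 (adjusted p = 0.0131), Epha5 (adjusted p = 0.0413) and Sema4f (adjusted p = 0.0487). With plate as a block Sema4f was lost (adjusted p = 0.102) and Plxna2 was added (adjusted p = 0.0140). Efna5 stood at 131 and 92.7 CPM in cluster 4 and at 0 to 9.24 in cluster 3, with 10.8 and 46.2 in cluster 2, 8.30 to 39.1 in cluster 1 and 14.6 to 88.6 in cluster 5. Epha5 was likewise highest in cluster 4, at 43.4 and 48.0 CPM, against 0 to 30.05 in the other 4. Sema4f had 65.6 and 71.6 CPM in cluster 4 and 14.3 to 54.1 in clusters 1 and 5. The count of 7 was 2 to 4 when any 1 plate was left out, and the calls of Sema4f and Epha5 held in 3 and 6 of 11 alternatives.

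**Figure D5:**
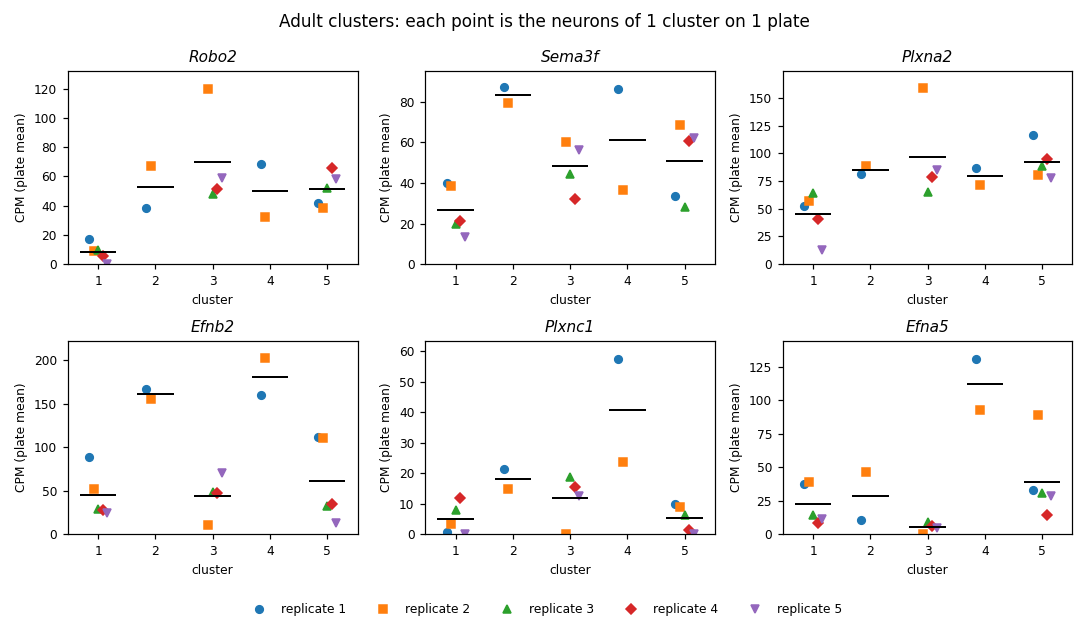
Levels of Robo2, Sema3f, Plxna2, Efnb2, Plxnc1 and Efna5 in CPM (y axis, linear) in the 5 clusters of adult neurons (x axis), where each point is the neurons of 1 cluster on 1 plate, the marker gives the replicate and the bar is the mean. Robo2 is at 17.4 CPM or below in cluster 1 and at 32.1 or above elsewhere, and Efnb2 and Efna5 are higher on replicates 1 and 2 within clusters 1 and 5.

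Adult plates fell into 2 sets. Within clusters 1 and 5, which lie on all plates, 3 of 11 members were higher on replicates 1 and 2 than on 3 to 5, beside 20.1% of all genes (11% higher, 9.11% lower). They were Efnb2 (1.61, adjusted p = 6.23e-05), Efna5 (1.73, adjusted p = 0.000735) and Sema4b (2.35, adjusted p = 0.00611). Clusters 2 and 4 lie only on replicates 1 and 2, so the levels of Efnb2 and Efna5 there belong to that set of plates as well. A change of the cluster 5 against cluster 1 difference between the plate sets passed for 0 of 11 members in edgeR, beside 0.0143% of all genes, and 1 member had an unadjusted p under 0.05. Which animals gave which plates is not known.

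Wells set aside for glial transcripts held these genes too. On the p0, p12 and adult plates 92, 216 and 242 such wells had at least 2000 genes, with summed glial markers of 3999, 7964 and 9556 CPM. At p0, 15 of the 38 tested members were higher there than in kept neurons on each of 2 plates, beside 30.6% of all tested genes. At p12, 6 were higher on each of 4 plates, beside 12.5%. In the adult, 10 of the 38 tested members were higher in those wells than in kept neurons on every plate and 1 was not higher on any, with a median ratio of 1.18. Of all tested genes 10.2% were higher there on every plate and 8.40% on none, with a median ratio of 1.0006. Sema3b (ratio 16.3), Plxnb1 (7.08), Efnb1 (4.62), Plxnb2 (4.35) and Plxnd1 (3.13) were higher there on 5 of 5 plates, whereas Robo2 (1.11), Efnb2 (1.04) and Plxna2 (1.01) were at about the level of the kept neurons. Sema7a was lower there on each plate (0.739). At p0 the ratios of the members that had risen from e14.5 were 0.915 for Plxna2, 0.775 for Plxna1, 0.929 for Sema7a, 1.02 for Slit2, 1.09 for Robo2 and 1.12 for Sema3b.

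The remaining genes of the guidance machinery were counted from lists of other receptors, other ligands and intracellular signalling genes that hold none of the members. From e14.5 to p0, 8 of 19 tested receptors or co-receptors passed (1 higher, 7 lower), 7 of 11 ligands (3 higher, 4 lower) and 14 of 59 signalling genes (7 higher, 7 lower), beside the 27.8% of all tested genes. Omg, a myelin-associated inhibitor, went from 1 UMI at e14.5 (0.613 CPM) to 97 UMIs at p0 (41.6 CPM, adjusted p = 2.90e-05), and Ntng1, a membrane-bound netrin relative, from 23 UMIs to 1 (10.5 and 0.368 CPM, adjusted p = 0.0220). Rgma, a ligand of neogenin, rose by 3.25, while Draxin, a Dcc ligand, had -3.71 (adjusted p = 0.000541 and 0.00281). From p0 to p12 the counts were 3 (1 higher, 2 lower), 1 (higher) and 21 (10 higher, 11 lower) of the same 19, 11 and 59, beside 18.1% of all genes. Gap43, a growth cone protein, had -4.92 and the adhesion molecule Ncam1 -2.84, whereas Nrcam rose by 2.57 (adjusted p = 9.03e-07, 6.64e-06 and 0.000637) and Ntng1 reached 76 UMIs (17.97 CPM, adjusted p = 0.00914). From p12 to adult 3 (1 higher, 2 lower), 1 (lower) and 19 (9 higher, 10 lower) passed, beside 14.1% of all genes. Gap43 had a further -3.10 and Dpysl4, a collapsin response mediator, -1.998, and Flrt3, an adhesion molecule that binds Unc5 receptors, rose by 2.56 and Vav2, an exchange factor for small GTPases, by 1.46 (adjusted p = 6.35e-05, 0.00216, 0.00821 and 0.0182).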

How the data were processed

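UMI counts per gene and well were deposited by the authors as 1 table per plate, with a table of kept neurons that gives their stage and cluster. Reads were aligned with STAR to mm10 per the submitters' notes, and the strand setting of the counting is not given in the sources used here, so reads of Plxna4 and its antisense genes could be mixed. Well counts are raw. The authors removed wells with few genes or with glial marker transcripts before clustering. Some items are not reported here.

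From these counts, CPM used all UMIs of a well and were averaged over the neurons of a plate, then over plates. UMIs were summed per plate, or per cluster and plate with at least 2 neurons, and fitted over all genes that passed filterByExpr with edgeR 4.0.16 (R 4.3.3; TMM scaling, glmQLFit and glmQLFTest, Benjamini-Hochberg, threshold 0.05). Sums weigh neurons by depth, unlike the CPM means. Fits were tested on simulated data. Alternatives were DESeq2 1.42.0, its size factors, no filter, thinning neurons to 7000 UMIs (151 of 169 at e14.5 and 152 of 154 at p12; shallower neurons were left out), other minima of neurons (1 and 4), the plate as a block, subsets of clusters or plates, and leaving out each plate in turn. Restrictions to p12 plates 1 and 2 or 3 and 4, and to p0 clusters 1 and 2, were chosen after seeing the data. Sums of 1 plate share its library, so the plate pairs them, and their deviations from the cluster means correlated with a median r of 0.0422 (p0), 0.0806 (p12), 0.135 (adult) and 0.135 (e14.5). Exact intervals cover counting error only. Python 3.11.15, numpy 2.4.6, pandas 2.3.3 and matplotlib 3.10.9 were used, and sequences came from RefSeq tables in which 58 members had a promoter and 69 had coordinates.

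The members, the marker and pathway lists and the tests were chosen with earlier results of these data known. Named with values were members past the threshold in any comparison, and a set of members with known roles in sensory axons. Replicate numbers follow accession order and only name plates.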

Additional observations from a re-analysis of the deposited data

Results flagged for a closer look

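For 12 of the 76 stage groups of 4 or 5 plates examined for the named members, 1 plate lay far from the others by Dixon's test at the 95% level. Chance flags about 1 group in 20, but not where all other plates are at 0, as for 4 of the 12, where any UMI on 1 plate is enough. The other 8 came from 72 groups. At p12, replicate 1 was high for Nrp1 (7.64 CPM, the others 0 to 0.965, from 7 UMIs), Sema3e (6.55, the others 0, from 6 UMIs) and Sema6d (17.3, the others 7.83 to 8.27), and replicate 2 was high for Plxnd1 (28.7, the others 12.0 to 12.3). These 2 plates hold 12 and 13 kept neurons. Replicate 4 was low for Plxna2 (64.2, the others 109 to 114) and the only p12 plate with Sema3a (1.01, from 1 UMI). In the adult, replicate 2 was high for Epha7 (10.7, the others 2.55 to 4.51), Efna2 (5.87, the others 0 to 1.40), Plxnb2 (5.70, the others 1.53 to 2.28) and Dcc (0.955, the others 0, from 1 UMI). Adult replicate 1 was high for Plxnc1 (26.3, the others 10.9 to 15.1) and held the single adult UMI of Sema3a (0.386). Why these plates stood apart was not tested.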

How the results depend on the processing

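No called difference changed direction under any alternative. With e14.5 clusters 1 and 2 only, the p0 differences of Plxnd1, Plxnc1 and Slit1, which did not pass in either case, took the other sign (-0.18, 0.13 and -0.07). Called members kept their call in 855 checks under an alternative and lost it in 185. From e14.5 to p0, 15 members passed, 7 after thinning to 7000 UMIs, 9 with e14.5 clusters 1 and 2 only, and 6 to 11 without 1 plate. From p0 to p12, 11 passed, 3 after thinning and 5 to 12 without 1 plate. From p12 to adult, 2 passed, 4 with DESeq2, with its size factors, with adult numbered clusters only, with adult replicates 3 to 5 only or with p12 replicates 3 and 4 only (the last chosen after seeing the data), 5 with adult replicates 1 and 2 only, 0 after thinning and 1 to 4 without 1 plate. Across all stages 29 passed, 14 of 16 tested after thinning and 24 to 30 without 1 plate. Between adult clusters 5 and 1, 3 passed, 1 with no filter, 0 of 2 tested after thinning and 1 to 2 without 1 plate. For clusters 2 to 4 against 1 and 5, 3 passed, 0 after thinning and 0 to 2 without 1 plate. Across adult clusters 7 passed, 0 after thinning and 2 to 4 without 1 plate, and across p12 clusters 6, with 3 under DESeq2, 12 with no filter, none testable (0) after thinning and 3 to 8 without 1 plate. At p0 cluster 2 gave 0, and 1 with no filter. Thinning leaves fewer members to test. Shares over all genes were taken for the main setting only, so these counts do not show whether members lose calls more often than other genes. Other causes were not tested.

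With plate as a replicate block the counts were 3 for adult cluster 5 against 1, 4 for clusters 2 to 4 against 1 and 5, 7 across adult clusters, 6 across p12 clusters, 0 at p0, 3 for e14.5 clusters 3 and 4 against 1 and 2, and 0 for e14.5 cluster 1 against 2. The calls it changed were those of Sema3f, Sema4f and Plxna2 given with the adult clusters. No paired analysis was possible between stages because no plate holds 2 stages. Cluster fits at p0 and e14.5 were not repeated without 1 plate, since 1 sum per cluster would remain. Low counts limit the rest: 38 of the 67 members that could be read passed the filter for the stage fit. At e14.5 the median was 10604 UMIs a neuron, and levels and calls that rest on a few UMIs are uncertain. Low depth and low expression were not told apart.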
